A study of Mus musculus with 12 samples.

Results

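The major histocompatibility complex (MHC) genes and the genes of antigen processing were followed in white fat and in liposarcomas of mice. They were taken as every row of the deposited gene table whose symbol, or any part of a joined symbol, starts with H2- or is B2m, Tap1, Tap2, Tapbp, Psmb8, Psmb9, Psmb10, Psme1, Psme2, Nlrc5, Ciita or Cd74. This gave 56 of 37750 rows: 31 for class I (30 heavy chain genes and B2m), 8 for class I processing, 13 for class II with Cd74, 2 transactivators, and 2 rows that carry an H2 symbol but encode no presentation molecule. Of these, 38 reached 1 FPKM (fragments scaled to transcript length and to the mapped fragments of the library) in at least 4 of the 12 libraries and were tested. In 3 rows the symbol is joined with others at an overlapping locus: Tapbp with Zbtb22, Cd74 with Mir5107, and H2-Ke6 with Gm20427 and Slc39a7.

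All animals were Ad/NICD mice of a 129 x C57BL/6 background, in which the active intracellular domain of Notch1 is made in adipocytes. The 4 WAT libraries are white adipose tissue from mice 3 weeks of age, and the 8 LPS libraries are liposarcomas from mice 9 to 12 months of age (here LPS never means lipopolysaccharide). Both groups carry the transgene, so no library shows fat without it, and the labels name neither the promoter that drives it nor any pooling of animals. The labels call the libraries biological replicates. Tissue and age change together and cannot be told apart between the groups.

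The FPKM sums of the libraries ran from 771665 to 996090, and relative depth, read from the value of about 1 fragment, from 1.00 to 2.60 with LPS 1 the shallowest. The table holds no fragment counts, so no counting interval is given. The adipocyte label of WAT held: the sum of 8 marker genes lay between 10223 and 12560 FPKM in WAT, against between 79.8 and 2119 FPKM in LPS. LPS 5 stood apart, with a median ratio to the mean library of 0.814 against 0.991 to 1.06 elsewhere. In bulk tissue, fewer cells of a type and less RNA per cell cannot be told apart, and this holds for every value here.

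Class I molecules pair a heavy chain (H2-K1 and H2-D1 are the classical ones, the H2-Q, H2-T and H2-M genes the non-classical ones) with beta-2 microglobulin, the product of B2m. They display peptides that the proteasome cuts in the cytosol, that the transporter made of Tap1 and Tap2 moves into the endoplasmic reticulum, and that tapasin, the product of Tapbp, helps to load. Interferon gamma exchanges catalytic subunits of the proteasome for Psmb8, Psmb9 and Psmb10, which turns it into the immunoproteasome. Class II molecules pair an alpha with a beta chain, as H2-Aa with H2-Ab1, and display peptides from endosomes. They are a mark of B cells, dendritic cells and activated macrophages. Cd74, the invariant chain, guards their groove, H2-DM exchanges the peptide, and H2-O, which is typical of B cells, restrains H2-DM. H2-Eb1 and H2-Eb2 are H2-E beta chain genes, and the alpha gene, H2-Ea-ps, is listed as a pseudogene and stayed at or below 0.246 FPKM. NLRC5 drives transcription of class I genes and CIITA that of class II genes.

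A stretch shared by several class I heavy chain promoters was not found in the class II promoters. Promoter windows of 300 bases, 250 before and 50 after the start site, came from RefSeq on GRCm38.p6, and 38 of the 54 presentation genes had one. The letters AGTTTCACT, the core of the interferon response element of class I genes, were searched on both strands and stood in 0.301% of 32851 windows. They occurred in 8 of 23 class I genes (H2-K1, H2-D1, H2-Q4, H2-Q6, H2-Q7, H2-Q10, H2-T22 and H2-T3) and in 0 of 8 class II genes. GGGATTNCC, a kappa B type site, stood in 0.938% of all windows and in 5 class I genes. The first 6 of the 8 genes are shown. In the tumours 3 of them were called higher, 1 lower and 2 were not called. Whether the element bears on this was not tested. Capitals mark these motifs.
H2-K1: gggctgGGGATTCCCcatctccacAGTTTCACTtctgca
H2-D1: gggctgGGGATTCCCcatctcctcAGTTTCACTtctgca
H2-Q4: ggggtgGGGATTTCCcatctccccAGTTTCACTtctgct
H2-Q6: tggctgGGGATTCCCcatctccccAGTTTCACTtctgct
H2-Q7: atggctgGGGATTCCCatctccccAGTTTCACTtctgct
H2-Q10: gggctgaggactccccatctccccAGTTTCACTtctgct
They lie at chr17:34000425-34000463 on the minus strand for H2-K1, and on the plus strand at chr17:35262918-35262956 for H2-D1, chr17:35379438-35379476 for H2-Q4, chr17:35424672-35424710 for H2-Q6, chr17:35439016-35439054 for H2-Q7 and chr17:35469908-35469946 for H2-Q10. The H2-Q10 window kept AGTTTCACT and held no GGGATTNCC. A match of letters is a description and not a bound site.

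In class II genes the search was for the X and Y boxes through which CIITA acts, written as AGNAAC followed by ATTGG after 15 to 45 bases. The pair stood in 1.62% of all windows, in 5 of 8 class II genes, and in H2-M2 and H2-M10.4 among class I genes. The match lay on the strand opposite to the gene in H2-M2 and after the start site in H2-M10.4. Genes without these exact letters may still carry such boxes. All 5 class II promoters with the pair are shown. In the tumours H2-Eb1 and H2-DMb1 were not called. H2-Eb2, H2-Oa and H2-Ob were called lower, having passed the filter through WAT alone. H2-DMb2, also called lower, is not among the 5. Whether the boxes bear on these differences was not tested. Capitals mark the boxes.
H2-Eb1: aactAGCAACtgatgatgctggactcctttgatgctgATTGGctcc
H2-DMb1: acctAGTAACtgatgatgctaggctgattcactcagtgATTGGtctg
H2-Eb2: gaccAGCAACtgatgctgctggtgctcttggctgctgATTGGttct
H2-Oa: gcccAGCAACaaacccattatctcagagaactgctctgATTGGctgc
H2-Ob: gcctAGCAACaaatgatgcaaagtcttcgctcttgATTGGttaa
All lie on the plus strand, at chr17:34305771-34305816 for H2-Eb1, chr17:34153092-34153138 for H2-DMb1, chr17:34325538-34325583 for H2-Eb2, chr17:34092298-34092344 for H2-Oa and chr17:34238813-34238856 for H2-Ob. The boxes were 25 to 28 bases apart in these 5 genes. GAAANNGAA, the core of the interferon-stimulated response element, stood in 8.56% of all windows and in B2m, H2-T23, H2-T22 and Psme1. The windows of Psmb9 and Tap1, which are transcribed in opposite directions from a shared promoter, overlapped by 275 bases.

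Most called class I rows were higher in the tumours. The 4 called class II rows were lower, but 3 of them passed the filter through WAT alone and could only be called lower. Whether the classes differ from each other was not tested. Among the 38 rows tested, LPS was higher in 9 and lower in 10 (limma on log2(FPKM + 1), adjusted p below 0.05 over all 14821 rows tested), and 19 were not called. Over all rows 46.0% were called, 18.9% higher and 27.0% lower, so the 38 rows as a whole held calls at about the background share. By class, 6 of 16 class I rows were higher and 3 lower, 3 of 8 processing rows higher and 0 lower, and 0 of 10 class II rows higher and 4 lower. The median log2 difference was 0.90 for class I, 0.53 for processing and 0.13 for class II, against -0.05 over all rows. All LPS libraries lay above all WAT libraries in 4 members and below in 7, where over all rows 32.6% had no overlap, 11.8% with LPS higher and 20.9% with LPS lower. Differences on the log2(FPKM + 1) scale understate the change of genes with low values. Of the lower rows, H2-Oa, H2-Ob and H2-Eb2 passed the filter through WAT alone, and H2-Q10 and H2-M2 reached 1 FPKM in fewer than 4 tumours, so that their entry into the test already required a high WAT level. Without WAT 2, 5 members were lower, and without WAT 4, 6 members were lower and 3 class I rows higher. Without both WAT 2 and LPS 5 the members gave 11 higher and 5 lower. Part of these changes follows from the filter: H2-Oa, H2-Ob and H2-Eb2 then reach 1 FPKM in only 3 libraries, and with a minimum of 3 libraries, which readmits them through WAT alone, the members lower were 8 without WAT 2 and 9 without WAT 4.

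**Figure D1:**
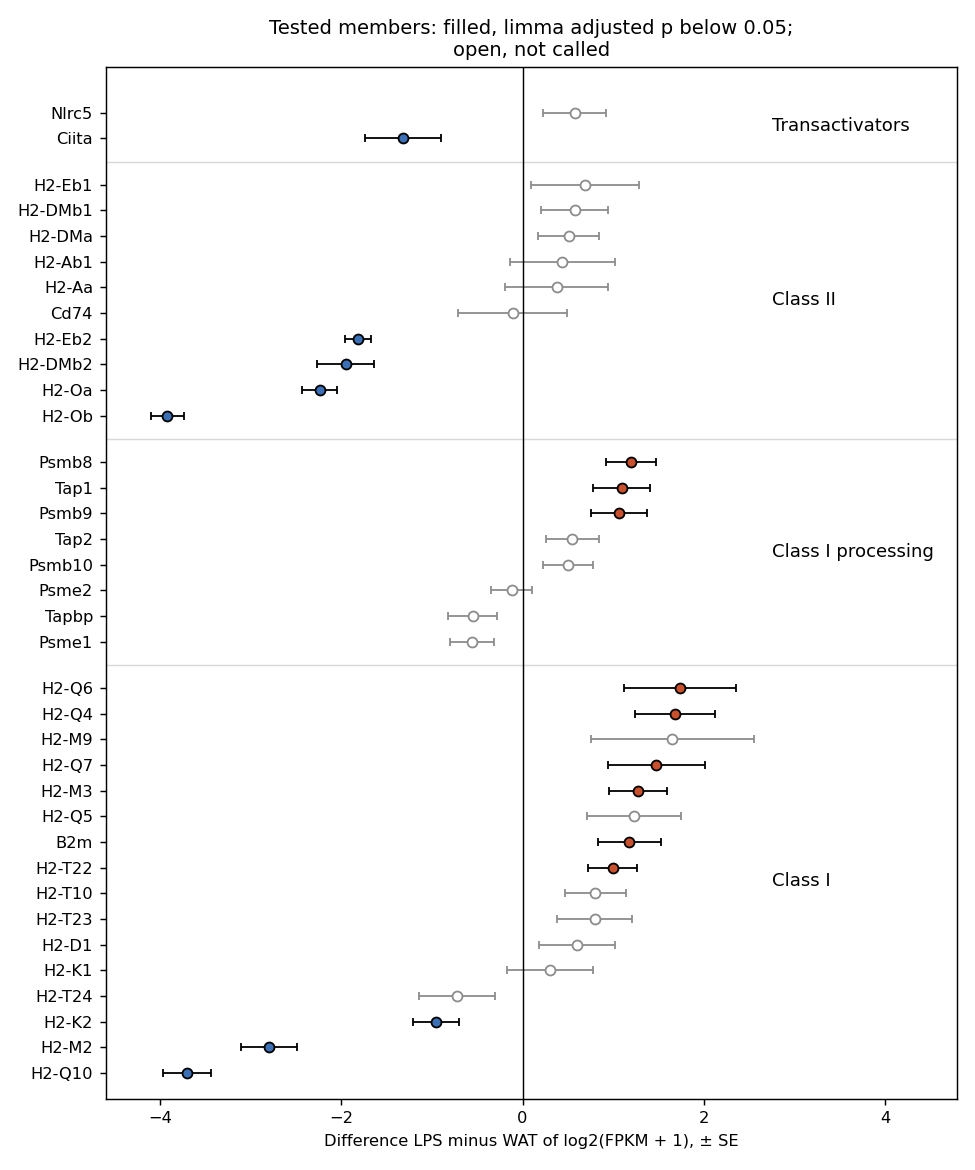
Differences between LPS and WAT on the log2(FPKM + 1) scale for 36 tested genes (the 2 H2 symbols outside presentation are left out), with bars of ± 1 SE from limma on 4 WAT and 8 LPS libraries. Filled points passed an adjusted p of 0.05, and class II holds no filled point to the right of 0. H2-Oa, H2-Ob and H2-Eb2 passed the filter through WAT alone.

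B2m, the shared light chain of all class I molecules (chr2:122147686-122153083), rose in the tumours. The 4 WAT libraries, in order, held 671, 808, 664 and 535 FPKM, against 805 FPKM at the lowest, 1649 at the median and 2914 at the highest in the 8 LPS libraries. Means were 669.6 ± 111 FPKM (WAT, SD, n = 4) and 1668 ± 811 FPKM (LPS, SD, n = 8), and the log2 difference was 1.18 ± 0.35 (SE; limma adjusted p = 0.0148). LPS 3 and LPS 6 were the highest, and LPS 8, the lowest tumour, lay within the WAT range, so the groups overlapped at that library. By mean level B2m stood at rank 103 of 37750 rows in WAT and at rank 41 in LPS. The call was lost without WAT 4, with a log2 difference of 1.08 and an adjusted p = 0.0539.

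The classical heavy chains did not pass the test, and their spread between tumours was wide. H2-K1 (chr17:33996017-34000347) measured 331, 395, 312 and 250.5 FPKM in WAT, and 147, 459.7 and 956 FPKM at the lowest, median and highest of LPS. Its log2 difference was 0.30 ± 0.48 (limma adjusted p = 0.635). H2-D1 (chr17:35262730-35267499) measured 289, 285, 276 and 192 FPKM in WAT, against 183, 419 and 911 FPKM in LPS. For H2-D1 the log2 difference was 0.60 ± 0.42 (adjusted p = 0.259, and 0.0404 after quantile normalization). Tumours lay on both sides of the WAT range for each gene: 5 of 8 were above the highest WAT library for H2-K1 and for H2-D1, while 3 were below the lowest for H2-K1 and 2 for H2-D1. The tumours high in B2m were also high here, with H2-K1 at 924 FPKM in LPS 3 and 956 in LPS 6. Heavy chain genes are similar in sequence, and no source used here states how the authors' tools split reads that match several of them, so the values of single class I genes are uncertain.

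**Figure D2:**
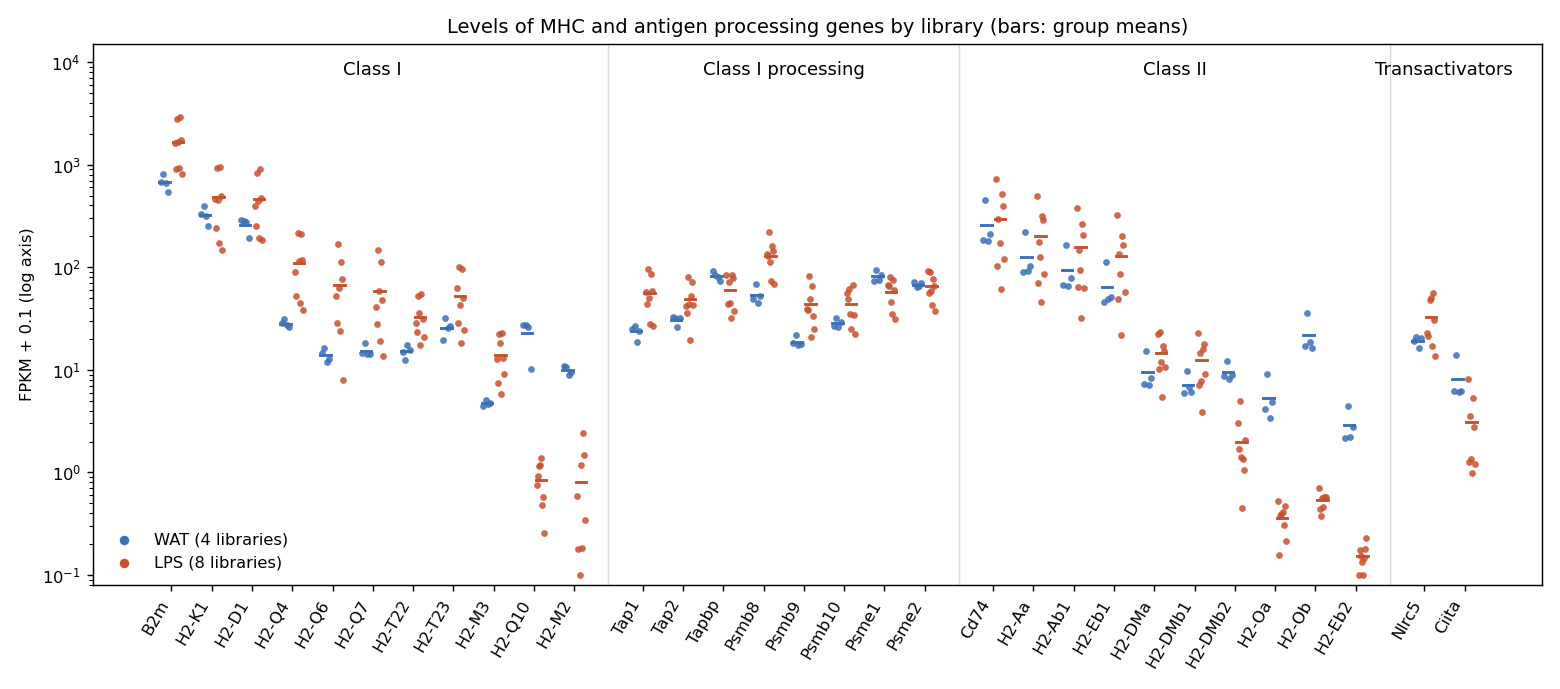
FPKM + 0.1 of class I, processing, class II and transactivator genes in each library on a log axis, with 4 WAT points and 8 LPS points per gene and bars at the group means. The B2m points of LPS reach from 805 to 2914 FPKM, and those of H2-Oa, H2-Ob and H2-Eb2 lie below all WAT points.

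Among the non-classical class I genes, 5 rose. H2-Q4 (chr17:35379617-35385290) measured 28.3, 30.9, 27.2 and 25.8 FPKM in WAT, and 38.6, 102 and 217 FPKM at the lowest, median and highest of LPS. All tumours lay above all WAT libraries, with a log2 difference of 1.68 ± 0.44 (limma adjusted p = 0.00742). H2-M3, which presents N-formylated peptides, also showed no overlap, with means of 4.62 ± 0.285 FPKM (WAT, SD, n = 4) and 13.9 ± 6.65 FPKM (LPS, SD, n = 8). Its log2 difference was 1.27 ± 0.32 (adjusted p = 0.00563). H2-T22, a ligand of some gamma delta T cells, likewise lay higher in every tumour, with a range of 12.4 to 17.2 FPKM for WAT and of 17.5 to 54.6 FPKM for LPS (log2 difference 0.99 ± 0.28, adjusted p = 0.0101).

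H2-Q6 and H2-Q7, neighbours of H2-Q4, rose with calls that rested on single libraries. H2-Q6 measured 14.4, 16.2, 11.8 and 12.7 FPKM in WAT, and 7.83, 57.6 and 169 FPKM at the lowest, median and highest of LPS. Its log2 difference was 1.74 ± 0.62 (limma adjusted p = 0.0363). H2-Q7, which encodes a Qa-2 antigen, ranged between 14.1 and 18.3 FPKM in WAT and between 13.4 and 149 FPKM in LPS (1.48 ± 0.53, adjusted p = 0.0380). For both genes 7 of 8 tumours lay above the highest WAT library and LPS 8 below the lowest. Leaving out any 1 WAT library ended both calls, as did leaving out LPS 4, LPS 6 or LPS 7, and for H2-Q6 also LPS 1. Among these fits the adjusted p reached 0.0887 for H2-Q6 and 0.0879 for H2-Q7.

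The other class I genes that leaned higher were not called. H2-T23, which encodes Qa-1, a ligand of the NKG2 receptors, was at 25.7 ± 5.25 FPKM (WAT, SD, n = 4) and 52.6 ± 31.2 FPKM (LPS, SD, n = 8), with an adjusted p = 0.133, and 0.0462 without LPS 5. H2-T10, a polymorphic pseudogene in GENCODE, was at 3.47 and 7.54 FPKM in the mean (adjusted p = 0.0686), and it was called without LPS 2 (0.0339) and without LPS 8 (0.0167). H2-Q5, of the same GENCODE type, was at 4.48 and 15.4 FPKM (adjusted p = 0.0707, and 0.0103 without LPS 8). LPS 8 was the lowest tumour for B2m, H2-K1, H2-D1, H2-Q4, H2-Q5, H2-Q6, H2-Q7 and H2-T10. H2-T24 pointed the other way, at 12.3 and 8.28 FPKM (log2 difference -0.72 ± 0.42, adjusted p = 0.181). The rows of H2-T22, H2-T23 and H2-T24 share an overlapping locus in the table.

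H2-Q10, H2-M2 and H2-K2 fell. H2-Q10, which encodes a secreted class I molecule best known from liver (chr17:35470089-35474563), measured 27.0, 27.5, 26.1 and 10.2 FPKM in WAT, and 0.154, 0.737 and 1.28 FPKM at the lowest, median and highest of LPS. All tumours lay below all WAT libraries, and the log2 difference was -3.71 ± 0.27 (limma adjusted p = 1.61e-07). H2-M2 (chr17:37480851-37483552) measured 10.7, 10.6, 8.85 and 9.51 FPKM in WAT, against 0, 0.364 and 2.34 FPKM in LPS (-2.80 ± 0.31, adjusted p = 7.40e-06). H2-Q10 and H2-M2 reached 1 FPKM in fewer than 4 tumours, so their entry into the test already required a high WAT level. H2-K2, a transcribed pseudogene beside H2-K1, was at 4.43 ± 0.577 FPKM (WAT, SD, n = 4) and 1.94 ± 1.03 FPKM (LPS, SD, n = 8), with an adjusted p = 0.00747. The H2-K2 call was lost with a replicate block (limma adjusted p = 0.0671). The adipocyte marker sum fell along with these genes, by 18.2 times in the mean, and its part in their fall was not tested.

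H2-M9 was set apart by LPS 7. It measured 0.539, 0.807, 1.04 and 1.27 FPKM in WAT, 124 FPKM in LPS 7, and between 0.725 and 10.2 FPKM in the remaining 7. The gene was not called, with a log2 difference of 1.66 ± 0.90 (limma adjusted p = 0.152). H2-M11, not tested, was also highest in LPS 7, where it reached 1.67 FPKM. The other 17 untested rows stayed at or below 0.499 FPKM in every library, and 2 of them, H2-M10.6 and H2-Pb, were listed at 0 in all 12. They comprise 14 class I genes and 3 of class II.

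In the processing of class I peptides, Psmb8, Psmb9 and Tap1 rose. These 3 genes lie side by side within the class II region of chromosome 17. Psmb8 (chr17:34197721-34201454), the beta 5i subunit of the immunoproteasome, measured 48.7, 68.0, 44.6 and 52.1 FPKM in WAT, and 68.9, 131 and 222 FPKM at the lowest, median and highest of LPS. No tumour fell into the WAT range, and the log2 difference was 1.19 ± 0.28 (limma adjusted p = 0.00334). Psmb9 (chr17:34181987-34187764), the beta 1i subunit, measured 18.3, 21.6, 17.5 and 17.5 FPKM in WAT, against 20.6, 38.7 and 81.2 FPKM in LPS, a log2 difference of 1.07 ± 0.31 (adjusted p = 0.0121). Tap1 (chr17:34187553-34197225), one chain of the peptide transporter, measured 25.0, 26.8, 18.7 and 23.5 FPKM in WAT, against 26.3, 53.5 and 96.3 FPKM in LPS, a log2 difference of 1.09 ± 0.31 (adjusted p = 0.0125). For each of Psmb9 and Tap1, 7 of 8 tumours lay above the highest WAT library. The loci of Psmb9 and Tap1 overlap in the table, as do those of Psmb8 and Tap2.

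The remaining processing genes were not called. Tap2, the partner chain of Tap1, measured 32.4, 31.7, 26.1 and 31.9 FPKM in WAT, against 19.6, 43.3 and 80.1 FPKM in LPS (adjusted p = 0.139). Without LPS 5, its lowest tumour, Tap2 was called higher (log2 difference 0.72, adjusted p = 0.0141). Psmb10 (chr8:105935735-105938444), the beta 2i subunit, measured 26.7, 31.7, 26.0 and 29.3 FPKM in WAT, against 22.1, 41.5 and 66.9 FPKM in LPS (log2 difference 0.50 ± 0.28, adjusted p = 0.158). Tapbp, in a joined row, measured 91.3, 83.2, 80.8 and 73.8 FPKM in WAT, against 31.6, 57.9 and 84.7 FPKM in LPS, a log2 difference of -0.55 ± 0.27 (adjusted p = 0.112). Both genes of the PA28 activator, a cap that opens the proteasome, also had log2 differences below 0. Psme1 measured 73.5, 93.7, 74.2 and 83.1 FPKM in WAT, against 31.2, 62.4 and 80.1 FPKM in LPS (-0.55 ± 0.24, adjusted p = 0.0780, and 0.0441 without LPS 3). Psme2 measured 71.9, 63.6, 65.0 and 69.3 FPKM in WAT, against 36.9, 62.2 and 92.4 FPKM in LPS (-0.12 ± 0.23, adjusted p = 0.698). The genes of class I processing thus did not move as 1 block: values of the log2 difference ran from -0.55 to 1.19.

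Ratios within a library compare genes without the scaling of that library. Each immunoproteasome subunit was set against the constitutive subunit it replaces, and 5 ratios in all were tested by exact permutation over all divisions of the libraries into 4 and 8 (two-sided, smallest possible p = 0.00202), with adjustment over the 5. Psmb8 to Psmb5 rose: it was 0.588 to 1.01 in WAT, and 1.64, 2.70 and 3.70 at the lowest, median and highest of LPS, a log2 difference of 1.79 (exact p = 0.00202, adjusted p = 0.0101). All 8 tumours lay above the highest WAT library. Psmb10 to Psmb7 was 0.258 to 0.361 in WAT and 0.316 to 1.15 in LPS, a log2 difference of 1.15 (exact p = 0.0101, adjusted p = 0.0253), with 7 of 8 tumours above. That call ended without WAT 1 or without WAT 3 (exact permutation, adjusted p = 0.0606 in each). Psmb9 to Psmb6 was 0.134 to 0.194 in WAT and 0.154 to 0.732 in LPS, a log2 difference of 0.98 that missed the threshold after adjustment (exact p = 0.0444, adjusted p = 0.0556, with 6 of 8 tumours above). It passed without LPS 5 (exact permutation, adjusted p = 0.0417) and without LPS 8 (0.0354).

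The constitutive partners were also measured on their own. The Psmb5 row is joined with Mir686, here and in the ratio of Psmb8 to Psmb5. Psmb5 fell from 72.4 ± 4.14 to 48.9 ± 8.33 FPKM and Psmb7 from 93.1 ± 5.66 to 60.4 ± 8.52 FPKM (SD, n = 4 and n = 8; limma adjusted p = 0.00290 and 0.000898), with no overlap of the groups. Psmb6 was not called, at 118 ± 8.68 and 132 ± 34.6 FPKM (adjusted p = 0.620). The ratio of Psmb10 to Psmb7 passed the test although Psmb10 alone did not pass.

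Class I was set against class II by the remaining ratios, with results that differed between the pairs. Cd74 to B2m was 0.272 to 0.560 in WAT, and 0.0653, 0.131 and 0.437 at the lowest, median and highest of LPS. The log2 difference was -1.29 (exact p = 0.0263, adjusted p = 0.0438), and 7 of 8 tumours lay below the lowest WAT library. LPS 1 was the exception, within the WAT range. Leaving out any 1 WAT library, or LPS 2, LPS 3 or LPS 4, ended the call in the exact permutation test (adjusted p from 0.0568 to 0.0909). H2-Ab1 to H2-K1, a class II chain against a class I chain, was 0.203 to 0.416 in WAT and 0.158 to 0.806 in LPS, a log2 difference of 0.13 (exact p = 0.774, adjusted p = 0.774). The groups overlapped for that ratio, with 3 tumours above and 2 below the WAT range.

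**Figure D3:**
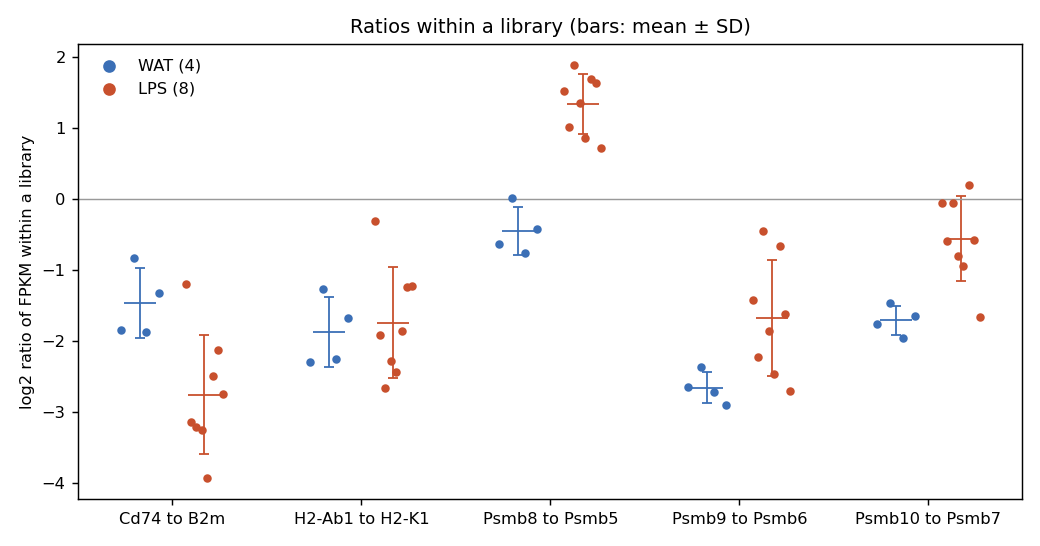
Log2 ratios of FPKM within each library for the 5 gene pairs, with 4 WAT and 8 LPS points per pair and bars of mean ± SD. For Psmb8 to Psmb5 all 8 LPS points lie above the WAT points, and for Cd74 to B2m 7 of 8 lie below.

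The abundant class II genes were not called, and their levels varied several-fold between tumours. Cd74, in a joined row, measured 186, 453, 181 and 213 FPKM in WAT, and 61.1, 235 and 717 FPKM at the lowest, median and highest of LPS. Its log2 difference was -0.11 ± 0.60 (limma adjusted p = 0.896). H2-Aa (chr17:34282744-34287823) measured 90.3, 219, 91.4 and 103 FPKM in WAT, against 46.1, 151 and 493 FPKM in LPS (0.38 ± 0.57, adjusted p = 0.621). Standard errors of this size leave differences of either sign possible. H2-Ab1 (chr17:34257689-34269419) measured 67.0, 164, 65.3 and 78.0 FPKM in WAT, against 31.8, 119 and 376 FPKM in LPS (0.44 ± 0.58, adjusted p = 0.567). H2-Eb1 (chr17:34305867-34316674) measured 45.9, 111, 49.1 and 50.7 FPKM in WAT, against 21.7, 109.9 and 319 FPKM in LPS (0.69 ± 0.59, adjusted p = 0.369). WAT 2 was the highest WAT library for each of the 4 genes, LPS 1 the highest tumour and LPS 5 the lowest.

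The H2-DM chains divided. H2-DMa, the alpha chain, measured 7.25, 15.3, 7.08 and 8.24 FPKM in WAT, against 5.34, 13.5 and 23.4 FPKM in LPS (limma adjusted p = 0.231). H2-DMb1, a beta chain, measured 5.84, 9.60, 6.77 and 5.92 FPKM in WAT, against 3.75, 11.7 and 22.6 FPKM in LPS (adjusted p = 0.221). Without both WAT 2 and LPS 5 these genes were called higher, with log2 differences of 0.91 and 0.90 (adjusted p = 0.0174 and 0.0481). H2-DMb2, the other beta chain gene, fell: it measured 8.60, 12.0, 7.96 and 8.82 FPKM in WAT, against 0.346, 1.46 and 4.81 FPKM in LPS. Its groups did not overlap, and the log2 difference was -1.95 ± 0.32 (adjusted p = 0.000220). H2-DMb1 and H2-DMb2 are adjacent and similar genes, so reads could be split between them.

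Both chains of H2-O, together with H2-Eb2, fell below 1 FPKM in every tumour. H2-Ob (chr17:34238903-34254414), the beta chain, measured 17.1, 35.3, 18.6 and 16.1 FPKM in WAT, and 0.275, 0.468 and 0.599 FPKM at the lowest, median and highest of LPS. The log2 difference was -3.92 ± 0.18 (limma adjusted p = 3.20e-09), and the WAT mean was 50.3 times the LPS mean. H2-Oa (chr17:34092340-34095234), the alpha chain, measured 4.01, 8.97, 3.26 and 4.73 FPKM in WAT, against 0.0573, 0.286 and 0.425 FPKM in LPS (-2.24 ± 0.19, adjusted p = 9.27e-07). H2-Eb2 measured 2.08, 4.32, 2.09 and 2.68 FPKM in WAT and at most 0.128 FPKM in LPS, where LPS 1 and LPS 5 were listed at 0 (-1.81 ± 0.14, adjusted p = 3.90e-07). Every tumour lay below every WAT library for these 3 genes. Each passed the filter through WAT alone, so this lack of overlap was fixed and only a lower call was possible. Their p-values are therefore no independent support for the fall. About 1 fragment on a transcript of 2 kb gives 0.0181 to 0.0470 FPKM in these libraries, so the tumour values rest on few fragments. The 3 genes miss the filter when a WAT library is left out, so they have no test there, and a minimum of 3 libraries readmits them through WAT alone.

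Markers of B cells fell together with H2-O. The 8 B cell markers summed to 137, 334, 142 and 164 FPKM in WAT 1 to WAT 4 and to 3.99 to 41.7 FPKM in LPS, all 8 were called lower, and none was at 0 in all tumours. WAT 2, the library highest in B cell markers, was also the highest for H2-Oa, H2-Ob, H2-Eb2 and H2-DMb2. This was not particular to B cells: WAT 2 was also the highest WAT library for the T and NK cell, dendritic cell, macrophage and pan-leukocyte sums. Among tumours LPS 1 had the highest sum of B cell markers and the highest H2-Oa plus H2-Ob, at 1.02 FPKM. LPS 2 had the lowest of both, at 3.99 and 0.393 FPKM. Between them the orders differed: LPS 3 had 18.2 FPKM of B cell markers and 0.555 FPKM of H2-O, and LPS 4 had 5.31 and 0.761 FPKM. These H2-O sums rest on few fragments. The part of B cells in these differences was not tested. The 10 T and NK cell markers summed to 72.1 to 111 FPKM in WAT and to 3.03 to 56.5 FPKM in LPS (6 of 8 tested lower).

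Markers of macrophages went the other way. The 12 markers summed to 255 to 353 FPKM in WAT and to 299 to 1043 FPKM in LPS, with 7 higher and 1 lower, and none was at 0 in any library. The sum of H2-Aa, H2-Ab1 and H2-Eb1 ran from 203 to 494 FPKM in WAT and from 99.6 to 1189 FPKM in LPS, highest in LPS 1, LPS 6 and LPS 7, which were also the tumours with the highest macrophage sums. LPS 5 broke that order, with a macrophage sum of 592 FPKM and the lowest class II sum. The 9 dendritic cell markers summed to 38.3 to 64.0 FPKM in WAT and to 21.9 to 50.1 FPKM in LPS (of 7 tested, 1 higher and 4 lower), and the 6 pan-leukocyte markers to 352 to 753 FPKM and to 53.8 to 373 FPKM (4 lower). The 7 endothelial markers summed to 185 to 239 FPKM in WAT against 233 to 394 FPKM in LPS, but 4 of them were lower (Kdr, Tek, Pecam1 and Cdh5) and 2 higher (Esam and Emcn), with a median log2 difference of -1.16. The 8 pericyte markers summed to 199 to 223 FPKM against 3766 to 8051 FPKM, with all 8 higher in every tumour. The part of any of these cells in the class I and class II values was not tested.

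**Figure D4:**
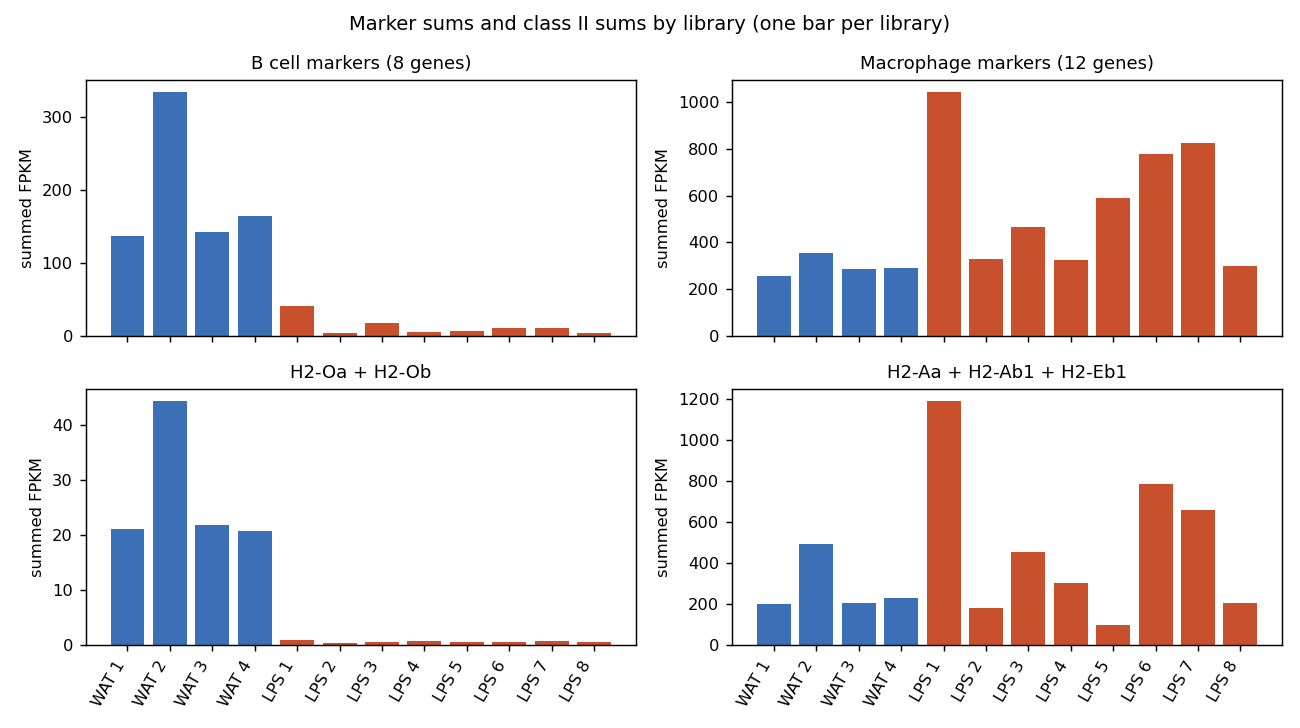
Summed FPKM per library, 1 bar each, for 8 B cell markers, 12 macrophage markers, H2-Oa with H2-Ob, and H2-Aa with H2-Ab1 and H2-Eb1, on axes that start at 0. B cell markers and the H2-O sum are high in all WAT bars and low in all LPS bars, whereas the class II sum reaches 1189 FPKM in LPS 1.

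The transactivators differed in the sign of their differences. Ciita (chr16:10480059-10528418) measured 6.16, 13.7, 6.02 and 6.06 FPKM in WAT, and 0.895, 1.95 and 8.05 FPKM at the lowest, median and highest of LPS. It fell, with a log2 difference of -1.32 ± 0.42 (limma adjusted p = 0.0209), and 7 of 8 tumours lay below the lowest WAT library. LPS 1, the tumour richest in class II, lay within the WAT range. The call was lost without WAT 2 (-1.06, adjusted p = 0.0841) and without both WAT 2 and LPS 5 (-0.94, adjusted p = 0.115). With a replicate block it was lost as well (-1.19, limma adjusted p = 0.118). Nlrc5 (chr8:94434356-94527272) measured 18.9, 20.6, 16.3 and 20.5 FPKM in WAT, against 13.5, 26.7 and 55.7 FPKM in LPS, and was not called (0.58 ± 0.35, adjusted p = 0.194). Whether Ciita differed from the abundant class II genes in its change was not tested.

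Within the 8 tumours Ciita varied with Cd74 and Nlrc5 with B2m. Relations were tested on log2(FPKM + 1) by exact permutation of all pairings, two-sided, and adjusted over the 6 computed. Ciita and Cd74 had a Pearson r of 0.938 (exact permutation p = 0.000918, adjusted p = 0.00275) and a Spearman rho of 0.952 (exact permutation p = 0.00114, adjusted p = 0.00670). Without LPS 1 and LPS 6, the tumours farthest from the median of Ciita, r was 0.892. Nlrc5 and B2m had an r of 0.896 (exact permutation p = 0.00466, adjusted p = 0.00933) and a rho of 0.905 (exact permutation p = 0.00456, adjusted p = 0.00913), and r was 0.800 without LPS 6 and LPS 8. Both relations are across tumours that share the scaling of their library, and WAT libraries were not pooled with them.

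Irf1, an interferon-induced activator of class I and immunoproteasome genes, and Psmb8 had an r of 0.904 (exact permutation p = 0.000422, adjusted p = 0.00253) and a rho of 0.929 (exact permutation p = 0.00223, adjusted p = 0.00670). Without LPS 5 and LPS 8 that r was 0.767. B2m and Cd74, the class I against the class II marker, had an r of 0.765 (exact permutation p = 0.0325, adjusted p = 0.0488) and a rho of 0.643 (exact permutation p = 0.0962, adjusted p = 0.115), and r was 0.683 without LPS 2 and LPS 8. The relation of B2m with Cd74 no longer passed without LPS 5 (r = 0.723, exact permutation, adjusted p = 0.0860) or after median-of-ratios scaling (r = 0.710, adjusted p = 0.0831).

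Ptprc, the pan-leukocyte gene that encodes CD45, was set against both. With Cd74 its r was 0.623 (exact permutation p = 0.106, adjusted p = 0.127) and its rho 0.643 (exact permutation p = 0.0962, adjusted p = 0.115), and r was 0.661 without LPS 4 and LPS 8. Without LPS 5 alone, r between Ptprc and Cd74 was 0.924 (exact permutation, adjusted p = 0.0122). With B2m its r was 0.446 (exact permutation p = 0.258, adjusted p = 0.258) and its rho 0.381 (exact permutation p = 0.360, adjusted p = 0.360), and r was 0.365 without LPS 4 and LPS 8. Ptprc itself fell, with means of 81.3 ± 28.6 FPKM (WAT, SD, n = 4) and 27.4 ± 16.1 FPKM (LPS, SD, n = 8) and a limma adjusted p = 0.00635.

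**Figure D5:**
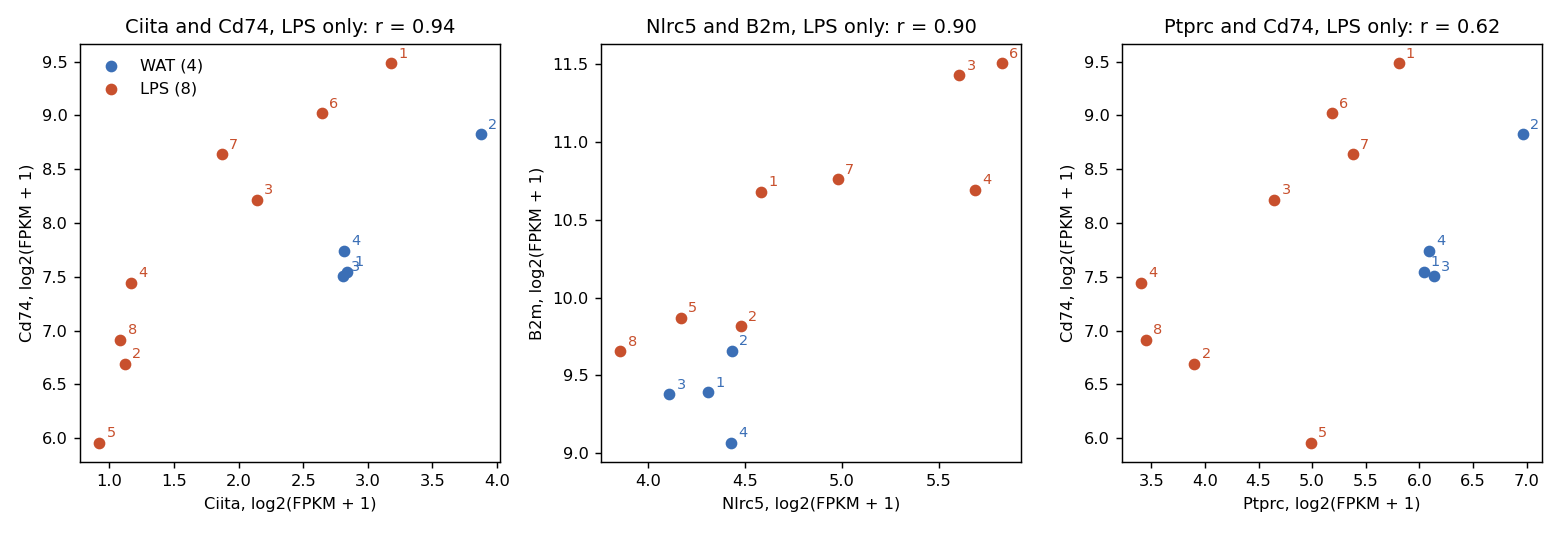
Pairs of log2(FPKM + 1) values for Ciita with Cd74, Nlrc5 with B2m and Ptprc with Cd74, 1 numbered point per library, with WAT points shown beside the 8 LPS points that entered r. In the right panel LPS 5 has the lowest Cd74 of the tumours but not the lowest Ptprc.

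Outside the members, 7 lists of presentation genes were followed, and 15 of 67 tested rows were higher and 12 lower in LPS, with a median log2 difference of 0.00 against -0.05 over all rows. Over all rows 18.9% were higher and 27.0% lower, so these counts lie near the background. Without WAT 1 or without WAT 3 the count of higher rows was 8 and 7. Of 7 genes for peptide loading and trimming (median 0.29), 2 were higher and 0 lower: the chaperone gene Canx (calnexin) was at 111 ± 3.15 FPKM (WAT, SD, n = 4) and 148 ± 23.4 FPKM (LPS, SD, n = 8), and Pdia3, which encodes ERp57 of the loading complex, at 73.0 ± 4.02 and 98.9 ± 17.4 FPKM. Their limma adjusted p of 0.0277 and 0.0245 rose above 0.05 without any 1 WAT library for Canx (up to 0.0805) and without WAT 1, WAT 2 or WAT 3 for Pdia3 (up to 0.0724). Hspa5 (BiP) was the gene not called in that list with the highest mean over all libraries, at 159 ± 12.5 and 195 ± 27.7 FPKM (adjusted p = 0.0813, and 0.0395 without LPS 5). Of 16 constitutive proteasome genes (median -0.02), 0 were higher and 3 lower: Psmb5, Psmb7 and Psma1, the last an alpha ring gene that fell from 81.2 to 48.9 FPKM (adjusted p = 8.66e-05).

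Proteases of the class II pathway went both ways, with 3 of 8 higher and 2 lower and a median log2 difference of -0.05. Besides Lgmn and Ctss the third higher gene was Ifi30, the thiol reductase of lysosomes, named after its value was seen. Lgmn, the asparaginyl endopeptidase, rose from a mean of 30.1 ± 3.55 FPKM (WAT, SD, n = 4) to 99.3 ± 35.8 FPKM (LPS, SD, n = 8), with no overlap (limma adjusted p = 0.000169). Ctss, the cathepsin that trims the invariant chain, rose from 46.1 to 120.0 FPKM (adjusted p = 0.0438), and lost the call without WAT 1, WAT 3, WAT 4 or any of LPS 1, 2, 5, 6 and 7 (adjusted p up to 0.123). Ctsd, an aspartic protease of lysosomes in a row joined with Ifitm10, fell from 394 ± 60.7 to 126 ± 34.8 FPKM (adjusted p = 1.81e-05). Cst3, the protease inhibitor cystatin C, fell from 354 to 217 FPKM with an adjusted p = 0.0497, which rose as far as 0.128 without any 1 WAT library or without any of LPS 2, 3, 4, 5 and 8. Ctsb was not called, at 149 and 102 FPKM (adjusted p = 0.0650), though it was without LPS 5 (0.0255) or LPS 6 (0.0314).

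Of 13 transcription factors of MHC genes (median -0.05), 2 were higher and 1 lower. Nfya, a subunit of the Y box factor, rose from 15.3 to 25.1 FPKM (limma adjusted p = 0.0160, 0.0505 without WAT 1 and 0.0648 without WAT 4). Rfxank, a subunit of the X box factor RFX, fell, with means of 6.29 ± 1.08 FPKM (WAT, SD, n = 4) and 2.63 ± 1.12 FPKM (LPS, SD, n = 8) and no overlap (limma adjusted p = 0.00106). Rfx5, of the same complex, was not called, at 8.57 and 10.2 FPKM (adjusted p = 0.619, and 0.0326 without LPS 5). Irf1 was not called either, at 31.7 ± 3.05 and 47.0 ± 19.9 FPKM (adjusted p = 0.275).

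The interferon gamma axis had 7 of 15 tested rows higher and 2 lower, with a median log2 difference of 0.92, where 18.9% of all rows were higher and 27.0% lower. Not every target was called: Gbp2, Gbp4, Gbp5, Cxcl9 and Socs1 did not pass (adjusted p from 0.0812 to 0.846). Among those that rose, Iigp1, an interferon-inducible GTPase, went from a mean of 8.98 ± 2.67 FPKM (WAT, SD, n = 4) to 167 ± 121 FPKM (LPS, SD, n = 8), which is a log2 difference of 3.70 ± 0.58 (limma adjusted p = 0.000176). Irgm1, of the same family, went from 15.4 to 72.0 FPKM (adjusted p = 7.00e-05), and neither gene's groups overlapped. The receptor gene Ifngr1 fell from 81.2 ± 9.99 to 31.3 ± 7.56 FPKM (adjusted p = 4.53e-05), as did the kinase gene Jak1 from 59.1 to 43.8 FPKM (adjusted p = 0.0208, a call lost without WAT 2 at 0.0898). The other receptor chain gene, Ifngr2, named after its value was seen, was higher, at 13.02 ± 1.76 and 24.1 ± 8.46 FPKM (log2 difference 0.78 ± 0.23, adjusted p = 0.0131). Gbp4, in a row joined with Gbp8 and Gbp9, was not called (14.3 ± 1.93 and 31.6 ± 21.7 FPKM, adjusted p = 0.336). Ifng, the ligand, reached no more than 0.0650 FPKM in a WAT library or 0.547 FPKM in a tumour and was not tested.

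Among class I-like genes outside the H2 symbols, 1 of 5 was higher and 3 lower (median -1.05), the third being Procr, the protein C receptor gene, named after its value was seen. Cd1d1, which presents lipids to NKT cells, fell from a mean of 69.0 ± 25.8 FPKM (WAT, SD, n = 4) to 2.62 ± 0.724 FPKM (LPS, SD, n = 8), which is a log2 difference of -4.22 ± 0.24 (limma adjusted p = 1.69e-08). Fcgrt, the heavy chain of the neonatal Fc receptor, fell from 124 to 51.2 FPKM (adjusted p = 0.000874). Mr1, which presents metabolites to MAIT cells, rose from 5.29 to 12.0 FPKM (adjusted p = 0.0269), a call lost without any 1 WAT library (adjusted p up to 0.0698). Hfe was not called, at 19.0 and 15.3 FPKM (adjusted p = 0.312). Of 3 tested co-stimulation genes (median -0.62) 0 were higher and 1 lower: Cd274, which encodes PD-L1, fell from 5.71 ± 0.557 to 2.44 ± 1.59 FPKM (adjusted p = 0.0173, a call lost without WAT 3 at 0.0501). Cd40 was not called, at 6.69 and 5.52 FPKM (adjusted p = 0.342).

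The 2 rows with an H2 symbol outside presentation were lower in the tumours. H2-Ke6, in a joined row and known as the dehydrogenase gene Hsd17b8, had means of 69.5 ± 6.77 FPKM (WAT, SD, n = 4) and 50.4 ± 6.81 FPKM (LPS, SD, n = 8), which is a log2 difference of -0.46 ± 0.12 (limma adjusted p = 0.00764). H2-Ke2, the prefoldin subunit gene Pfdn6, was at 35.4 and 25.4 FPKM (-0.45 ± 0.14, adjusted p = 0.0195), and its call was lost without WAT 2 (0.0648) and without WAT 4 (0.0894). The H2-Ke2 call also ended after median-of-ratios scaling (limma adjusted p = 0.0505), after quantile normalization (0.0647) and with a replicate block (0.0626). A replicate block ended the H2-Ke6 call too (limma adjusted p = 0.0575). Without these rows, 9 of 36 members were higher and 8 lower.

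No member was called for a slope with the age of the tumour-bearing mice. Over the 8 LPS libraries, at 9, 10, 11 or 12 months, 0 of 33 members tested had a slope per month that passed limma's adjusted threshold or an unadjusted p of 0.05. Over all 13280 rows tested 0% were called, and 228 had an unadjusted p below 0.05. Slopes of the members ran from -0.24 to 0.53 per month on the log2(FPKM + 1) scale.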

How the data were processed

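Ribosomal RNA-depleted, strand-specific total RNA was sequenced from 4 WAT and 8 LPS samples. The deposited values are FPKM per gene computed by the authors. The submitters' processing notes name Trimmomatic, Bowtie2, TopHat2 2.1.0, Cufflinks 2.2.1, Cuffdiff 2.2.1 and GRCm38, without their order or options, and any further scaling between libraries is unstated there. FPKM holds no fragment counts, so no count model was used.

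Rows that reached 1 FPKM in 4 or more of the 12 libraries entered limma 3.58.1 (R 4.3.3) on log2(FPKM + 1), with trend and robust empirical Bayes, two-sided, and Benjamini-Hochberg adjustment over all 14821 rows at 0.05. The scripts were tested on simulated data. The 5 ratios and 6 relations were tested by exact permutation, and slopes with age by limma within LPS. The limma p-values set a difference or slope against the spread between these samples. Permutation p-values rank a difference or correlation among rearrangements of the samples.

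Members were found by symbol, joined rows included, and each tested member was named. From each list of other genes, the 2 largest called differences each way and the most abundant gene not called were named, with 9 further genes listed by symbol, of which 1 is not reported here. Members and lists were chosen with earlier results of these data known. Of 141 listed genes 1 matched no row and was not analysed here. Gene coordinates came from GENCODE M21 and promoters from RefSeq, GRCm38.p6. Alternatives covered the pseudocount, filter, scaling, weights, variance model, replicate block and each library. The fits without WAT 2 and LPS 5 together, and those with a minimum of 3 libraries, were chosen after seeing the data.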

Additional observations from a re-analysis of the deposited data

Results flagged for a closer look

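The values of 73 genes and ratios were checked in each group, and in 22 of 146 groups 1 library lay far from the others by Dixon's criterion. For a single group chance gives about 1 in 20. Of the 22, 12 were in WAT 2 and 4 in WAT 4. Genes that vary together are flagged together, so the 22 are not independent and cannot be weighed against that rate.

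WAT 2 was high in class II genes. Cd74 stood there at 453 FPKM (next 213), H2-Aa at 219 (103), H2-Ab1 at 164 (78.0), H2-Eb1 at 111 (50.7), H2-Ob at 35.3 (18.6) and H2-DMa at 15.3 (8.24). Their transactivator gene Ciita was at 13.7 FPKM (6.16), the leukocyte gene Ptprc at 124 (69.4) and the co-stimulation gene Cd40 at 8.73 (6.05). H2-Q7 at 18.3 FPKM (14.5), Jak1 at 71.6 (55.5) and Ifng at 0.0650 (0) were also highest in WAT 2. The B cell markers summed to 334 FPKM in that library (next WAT library 164). The other leukocyte sums were also highest of the WAT libraries there. T and NK cell markers stood at 111 FPKM (77.4), dendritic cell markers at 64.0 (42.3), macrophage markers at 353 (292) and pan-leukocyte markers at 753 (424). The part of any of these cells in the values of WAT 2 was not tested.

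WAT 4 was the lowest WAT library for H2-D1 at 192 FPKM (next 276), H2-Q10 at 10.2 (26.1) and the pseudogene H2-K2 at 3.57 (4.65), and the highest for Irgm1, at 19.9 FPKM (14.1). In WAT 3, Tap2 was low, at 26.1 FPKM (31.7).

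Among tumours, H2-M9 stood at 124 FPKM in LPS 7, where the next tumour had 10.2. Rfx5 was low in LPS 5 at 3.69 FPKM (9.52), and Rfxank high in LPS 3 at 5.20 (3.06). Ifng reached 0.547 FPKM in LPS 1 (0.165), and Cd40 11.6 FPKM in LPS 6 (6.12).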

How the results depend on the processing

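No member changed the sign of a called difference in any alternative run. Of 969 values of member genes under alternatives, 901 kept their call. Of 38 members, 19 kept it in every run in which they were tested. Among these 19, the filter left H2-Oa and H2-Eb2 with 20 of 26 alternatives, H2-Ob with 21 and H2-M9 with 25. Over all rows the share of lower calls was 58.8%, 45.2% after quantile normalization (which moved the median from -0.05 to 0.10) and 67.1% without a filter. Counts over all rows ran from 2156 to 4182 higher and from 2818 to 5387 lower. The filter at 5 FPKM left 2 class II rows lower. Quantile normalization gave 23 other presentation genes higher, and array weights 25. Array weights also gave 18 members higher, 5 processing rows higher and 2 lower, and 3 class II rows higher. Median-of-ratios scaling gave an r of 0.710 for B2m with Cd74, which ended that call (exact permutation, adjusted p = 0.0831). The cause was not tested.

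Leaving out 1 library gave 6 to 11 members higher and 5 to 11 lower, 3 to 8 class I rows higher, 0 to 1 processing rows lower, 0 class II rows higher and 1 to 4 lower, and 7 to 19 other genes higher. The log2 difference ran from -1.51 to -1.08 for Cd74 to B2m, from 0.80 to 1.13 for Psmb9 to Psmb6 and from 1.04 to 1.31 for Psmb10 to Psmb7. Without LPS 5, r was 0.723 for B2m with Cd74 and 0.924 for Ptprc with Cd74. With a minimum of 3 libraries, other genes higher were 9 without WAT 1 and 8 without WAT 3, and class I rows higher were 3 without WAT 4. Without WAT 2 and LPS 5 together, 5 members were lower, and 2 class II rows were higher and 1 lower.

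Replicate numbers are shared between the groups. Deviations of same-numbered libraries correlated at -0.02 to 0.09, and 2 of 4 correlated best with their own number. This gave no clear sign that the numbers pair the samples, but so few libraries cannot exclude it. The main fits treated the libraries as unpaired. With a replicate block 6 members were lower, and 2664 rows were higher and 3375 lower over the table.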
